A study of Mus musculus with 4 samples.

Results

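Tag 6 and tag 7 were 2 of the 8 hashtagged cultures pooled in the second of 2 single-cell RNA-sequencing experiments on Runx factors in early T-cell development. The tag columns of the second experiment were numbered 1 to 8 in file order. Cells with at least 500 detected genes and under 10% mitochondrial transcripts were kept, and a cell was given the tag with its highest count where that count was at least 50 and at least 3 times the second highest. Tag 6 held 933 cells and tag 7 held 1017, together 1950 of the 8335 cells given a tag, of 10214 kept cells and of 10556 deposited barcodes in the second experiment; the whole series held 20523 barcodes. The pair was selected on the difference between its summed UMI counts across genes, known from earlier results, so every difference between tag 6 and tag 7 is given as a description of 1 culture a side, without a test. Close to the thresholds, 41 tag 6 and 24 tag 7 cells had a top tag under 3.5 times the second and 44 and 43 cells fell just short of 3 times. By the same measure, 38 and 19 cells held fewer than 60 tag counts and 25 and 9 cells with 40 to 49 counts were left out.

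The cultures grew from bone marrow progenitors of mice carrying a Bcl2 transgene, placed on OP9-Dll1 cells, a mouse stromal line that presents the Notch ligand Dll1, with IL-7 and Flt3-ligand at 10 ng/ml each. For Runx1 overexpression, B6.Bcl2 progenitors from mice 8 to 10 weeks old received MSCV-Runx1-mCherry or MSCV-empty-mCherry on day 2 and were collected on day 4 or 6. For loss of Runx1 and Runx3, B6.Cas9;Bcl2 progenitors received guide vectors E42-gRunx1-hNGFR and E42-gRunx3-mTurquoise, with 3 guide pairs per gene, or luciferase-targeting control guides in the same vectors, on day 2 and were collected on day 5 or 8. Live CD45+ cells without lineage markers and with the vector reporter were sorted, and equal numbers per culture were pooled. The labels describe the second experiment as spanning days 4 to 8 of culture. Which vector, genotype or day tag 6 or tag 7 stands for was not given in the sources used here, so no condition is attached to either, and vector, genotype, day and culture cannot be told apart. The 2 experiments' libraries shared 39 cell barcodes.

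Progenitors that enter the T lineage receive Notch signals, which induce the transcription factors Tcf7 and Gata3 and later Bcl11b. In a first phase the cells keep the regulators of their multipotent ancestors, such as Spi1 (PU.1), Lmo2 and Mef2c. As they advance toward and through commitment, they display the IL-2 receptor alpha chain Il2ra and lose these regulators. They also assemble the CD3 chains of the T-cell receptor complex. Runx1 and Runx3, DNA-binding partners of Cbfb, act throughout this transition and in innate lymphoid cells, which share many genes with early T cells.

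The cultures were identified by the barcode oligonucleotides on their hashing antibodies, printed here because they define the 2 cell populations. They are read 5′ to 3′ from the tag tables.
Tag 6: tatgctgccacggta
Tag 7: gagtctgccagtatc
The median count of the top tag was 156 in tag 6 cells and 197 in tag 7 cells, against a median of 12 for the second tag in both.

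The summed transcriptomes held 26727892 unique molecular identifiers (UMIs) for tag 6 and 23531058 for tag 7, within the range of 22272716 to 42684236 over the 8 tags. A tag 6 cell had a median of 27028 UMIs and 4550 genes, and a tag 7 cell 21907 UMIs and 4152 genes. Mitochondrial shares of the summed UMIs were 3.70% and 4.04%. Levels are counts per 1000000 of each tag's summed UMIs (CPM), and intervals are exact 95% limits that cover counting error only, not variation between cultures. The labels call the sorted cells Kit-high, early pro-T cells. Kit was at 26.4 CPM in tag 6 and 34.2 CPM in tag 7, in a range of 26.4 to 56.5 CPM over the 8 tags, of which tag 6 was lowest.

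The clearest difference lay in which cells each tag held. Cells with at least 5 UMIs of the neutrophil granule protease genes Elane or Prtn3, or of S100a8, which encodes a calcium-binding protein of neutrophils, were 288 of 933 in tag 6 (30.9%, exact 27.9 to 33.9%) and 22 of 1017 in tag 7 (2.16%, 1.36 to 3.26%). In tag 6, 262 of them reached the threshold through Prtn3, 53 through Elane and 78 through S100a8, and 45 through each of the 3 genes. In tag 7 the numbers were 20, 1, 2 and 0. Most passed through Prtn3 alone, 202 of the 288 in tag 6 and 19 of the 22 in tag 7, so the group was not shown to be 1 kind of cell. These granule-gene cells were larger libraries, with medians of 34226 and 33183 UMIs against 24176 and 21850 in the remaining cells, and they held 39.8% of the UMIs of tag 6 and 3.40% of those of tag 7. At the threshold, 16 tag 6 and 1 tag 7 cells had exactly 5 UMIs of their highest granule gene, and 32 and 7 cells left on the other side had exactly 4. The share over the 8 tags ran from 2.16% in tag 7 to 45.7% in tag 1, with tag 6 in the second place.

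Removing the granule-gene cells left 645 tag 6 and 995 tag 7 cells, of which 371 and 893 were in none of the groups that follow. The shares of those groups are of all cells, granule-gene cells included. They come from marker sums whose thresholds were set after the data were seen. At least 10 UMIs over 8 monocyte and macrophage genes such as Csf1r, the receptor for the macrophage growth factor, were held by 388 tag 6 cells (41.6%, 38.4 to 44.8%) and 49 tag 7 cells (4.82%, 3.59 to 6.32%). At least 50 UMIs over 5 genes of MHC class II presentation were held by 23.3% (20.6 to 26.1%) and 4.42% (3.25 to 5.88%). Genes of stromal cells, 8 in all and including collagens, reached 20 UMIs in 46 and 7 cells, which is 4.93% (3.63 to 6.52%) and 0.688% (0.277 to 1.41%), although the sort was on CD45, which stromal cells lack. B-lineage genes went the other way, with 9 cells (0.965%) in tag 6 and 31 (3.05%) in tag 7. Mast-cell and basophil genes were near each other, at 1.5% and 2.06%. Cells in any of these groups made up 60.2% of tag 6 and 12.2% of tag 7. Cells with at least 3 UMIs of Il2ra were 159 in tag 6 (17.0%) and 730 in tag 7 (71.8%), and cells with at least 3 UMIs of Cd3g, the CD3 gamma chain, were 31 (3.32%) and 474 (46.6%).

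**Figure D1:**
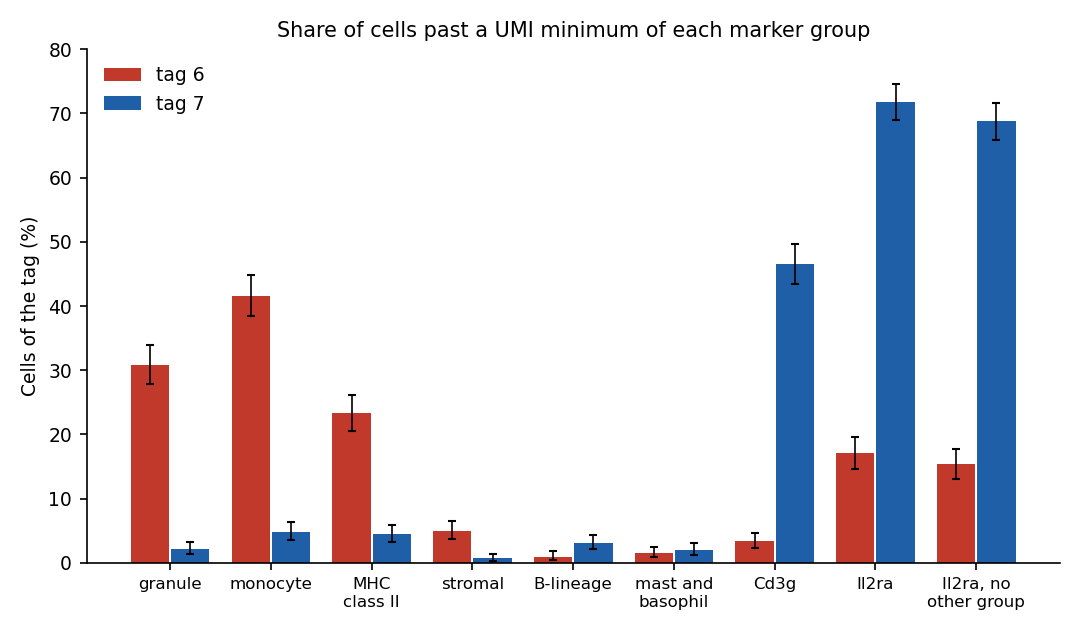
Share of the cells of tag 6 (933 cells) and tag 7 (1017 cells) in each marker group, in percent with exact 95% binomial intervals; groups overlap. Tag 6 is higher for granule (30.9% against 2.16%), monocyte and MHC class II genes, and tag 7 for Il2ra (71.8% against 17.0%) and Cd3g.

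Counts per cell gave the same picture at equal depth. After each cell was thinned to 5000 UMIs, which left 914 tag 6 and 1000 tag 7 cells and dropped 19 and 17 shallower ones, Il2ra was seen in 17.3% and 68.3% of cells, against 25.7% and 82.9% before thinning. Cd3g was seen in 3.72% and 47.4% after thinning, against 9.54% and 56.7% before. In the 78 tag 6 cells with S100a8, which should lack both genes and had a median of 29530.5 UMIs, 73 cells were deep enough to thin and 1 cell of those showed each of them (1.37%, exact 0.0347 to 7.40%). The Cd3g share of tag 6 lies within that interval, which is wide because it rests on 1 of 73 cells. The comparison therefore cannot tell that share from background at this depth. The Il2ra share of tag 6 lies above the interval. Cd3g was uneven among tag 7 cells, with a median of 1 UMI and an upper quartile of 23, whereas both values were 0 in tag 6. Gbp2, a guanylate-binding protein induced by interferon gamma, went the other way, in 47.6% of thinned tag 6 cells and 10.8% of tag 7 cells. Spi1 was seen in 63.5% and 24.0%, and Lmo2 in 37.2% and 3.60%.

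Of 7036 genes averaging 10 CPM or more over the 2 tags, 368 (5.23%) were at least 2-fold higher in tag 6 and 206 (2.93%) at least 2-fold higher in tag 7. Without the granule-gene cells, 355 (5.02%) and 166 (2.35%) of 7070 genes were. These sets shared 300 genes on the tag 6 side (81.5% of the first and 84.5% of the second) and 151 on the tag 7 side (73.3% and 91.0%). With all cells, the 12 largest ratios toward tag 6 among genes of at least 20 CPM were those of Elane, Chil3, Ngp, S100a8, S100a9, Lcn2, Camp, Ccl24, Wfdc21, Ltf, Ms4a3 and Cxcl10, most of them genes of maturing neutrophils. Elane was at 329.7 CPM in tag 6 and 1.19 CPM in tag 7. S100a8 was at 4736 and 22.7 CPM. In the cells left after the removal, Elane was at 1.18 and 1.01 CPM, and S100a8 at 16.0 and 15.2 CPM, within the 14.1 to 16.2 CPM of S100a8 over the left cells of all 8 tags. Both genes set the rule of removal, so these low levels are no finding. The genes that then led on the tag 6 side were Ccl24, Clec4n, Cxcl10, Serpina3f, Bcl2a1b, Bcl2a1d, Bcl2a1a, Lpl, Il1b, Csf1r, Iigp1 and Spp1, a mix of macrophage products, interferon-inducible genes and the near-identical survival genes Bcl2a1a, Bcl2a1b and Bcl2a1d on chromosome 9, whose reads the counting may split between copies. Ccl24, a chemokine of macrophages, was at 156.9 CPM in tag 6 and 1.23 in tag 7, a ratio of 127.3 (87.9 to 192.0). On the tag 7 side Cd3g, Gm4632, Bcl11b, Fgf3, Sytl3, Ly6d, Arpp21, Trat1, Itga2b, Endou, Tubb3 and 1500009L16Rik led in the left cells, and with all cells the same names did except that Cd3d stood in place of Itga2b. Arpp21, a gene active in immature lymphocytes, was at 25.9 and 201.3 CPM in the left cells.

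**Figure D2:**
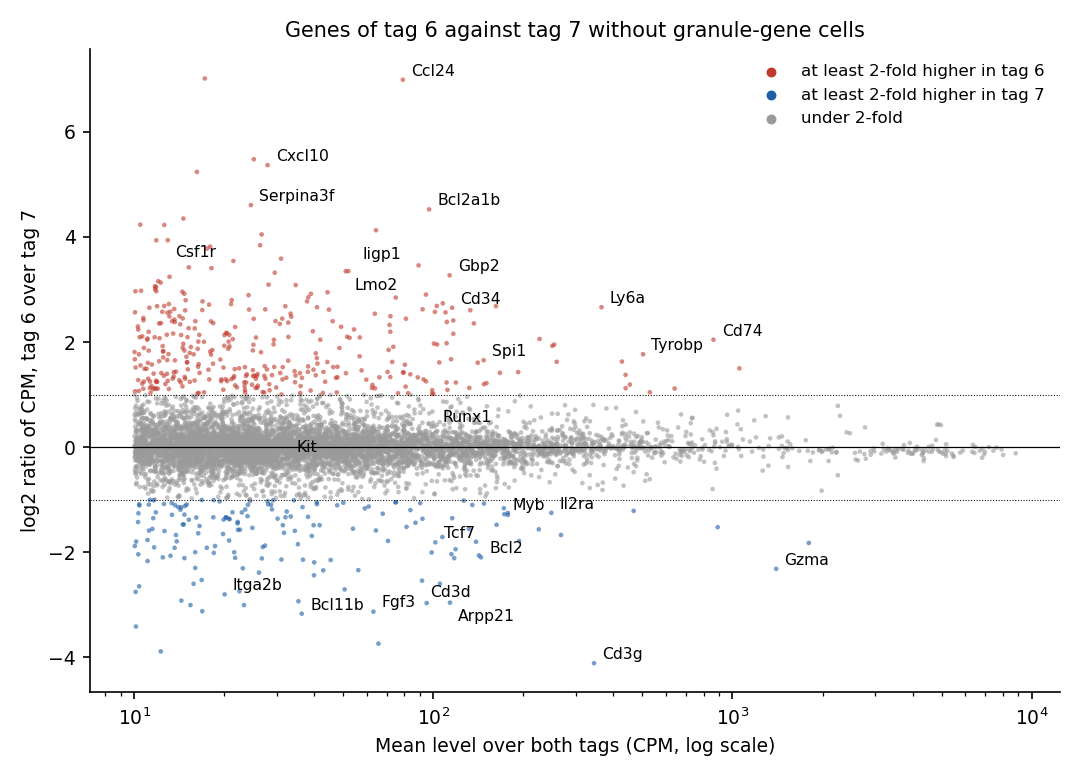
Log2 ratio of tag 6 to tag 7 against mean level (CPM, log axis) for each gene counted in the cells left without the granule-gene cells, with named genes marked. Genes at least 2-fold apart are coloured, 355 toward tag 6 and 166 toward tag 7; Ccl24, Cxcl10 and Csf1r lie far up, Cd3g and Bcl11b far down.

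The Runx genes themselves were close. Runx1, ENSMUSG00000022952 on chromosome 16 (16:92601466-92826074, GRCm38.p6 as in the positions that follow), was at 102.1 CPM in tag 6 and 86.7 CPM in tag 7, a ratio of 1.18 (1.11 to 1.25), and at 114.5 and 87.3 CPM without the granule-gene cells (1.31, 1.23 to 1.40). Over the 8 tags Runx1 ran from 33.7 CPM in tag 2 to 120.9 in tag 8 and tag 6 and tag 7 came next under tag 8. Reads from a Runx1 vector and from the cell's own gene are not separated in these counts. Runx3, ENSMUSG00000070691 at 4:135120645-135177990, was at 138.2 and 127.2 CPM (1.09, 1.03 to 1.14). Transcript counts of a gene cut by Cas9 need not be lower, so neither level tells whether the gene was targeted. Cbfb, the shared partner, was at 38.8 and 37.2 CPM, a ratio of 1.04 whose interval of 0.951 to 1.14 includes no difference. Of the 8 Runx family and partner genes counted, Runx2, best known from bone, was 2-fold apart, at 37.0 CPM in tag 6 and 13.7 CPM in tag 7.

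Regulators of multipotent progenitors were mostly higher in tag 6. Of 18 counted of 29 listed, 9 were at least 2-fold higher in tag 6 and 2 in tag 7 with all cells. Without the granule-gene cells, 8 of 17 (Spi1, Lmo2, Mef2c, Bcl11a, Meis1, Hoxa9, Cebpb and Irf8) were higher in tag 6 and 1, Myb, in tag 7, and the median log2 ratio was 0.69 beside 0.01 over all genes. The values that follow leave out the granule-gene cells. Lmo2, ENSMUSG00000032698 at 2:103957903-103981878, an adaptor of stem-cell transcription complexes, was at 92.7 CPM in tag 6 and 9.11 CPM in tag 7. Spi1, the master regulator of myeloid cells that early T progenitors still hold, was at 223.6 and 71.0 CPM. Mef2c, a factor of lymphoid and myeloid progenitors, was at 187.0 and 28.0 CPM, a ratio of 6.67 (6.12 to 7.28). Hoxa9, a homeobox gene of stem cells, was low in both, at 19.9 and 1.06 CPM. Myb, which early thymocytes need, was at 101.0 CPM in tag 6 and 244.4 CPM in tag 7. Surface molecules of progenitors leaned the same way, with 9 of 13 counted at least 2-fold higher in tag 6, 0 in tag 7 and a median log2 ratio of 1.53. Ly6a (Sca-1) was at 630.2 and 99.5 CPM, Cd34 at 199.4 and 31.7 CPM and the tetraspanin Cd81 at 186.1 and 35.7 CPM. Monocyte and dendritic marker genes moved with these, with summed levels of 720.9 and 166.4 CPM for the former and 4606 and 1593 CPM for the latter. With the cells of those and the other marker groups left out as well, Mef2c was at 164.7 and 20.8 CPM (7.91 times higher in tag 6) and Cd34 at 196.6 and 29.6 CPM (6.64 times). Of 10 progenitor surface molecules counted there, 5 were at least 2-fold higher in tag 6 and 0 in tag 7. Their median log2 ratio was 0.97. With only the granule-gene and stromal-gene cells left out, 7 of 13 were at least 2-fold higher in tag 6, no longer including Cd63 and Cd9.

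T-lineage transcription factors were mostly lower in tag 6. With all cells 8 of 21 counted were at least 2-fold higher in tag 7 and 1 in tag 6; without the granule-gene cells 4 (Tcf7, Bcl11b, Ets1 and Patz1) and 2 (Nrarp and Zeb2) were, with a median log2 ratio of -0.44. Tcf7, the Notch-induced factor that opens the T-cell programme, was at 28.2 CPM in tag 6 and 155.9 CPM in tag 7, and at 45.0 and 158.0 CPM in the left cells, where tag 7 was higher by 3.51 times (3.24 to 3.80). Gata3, which acts beside Tcf7, was at 35.4 and 53.9 CPM in the left cells. Bcl11b, ENSMUSG00000048251 at 12:107910403-108004145, the factor of T-lineage commitment, was at 7.27 and 65.3 CPM. Of 10 Notch target genes counted, 3 (Il2ra, Tcf7 and Gata3) were at least 2-fold higher in tag 7 and 0 in tag 6 with all cells, with a median log2 ratio of -0.33 and summed levels of 450.8 and 899.9 CPM. In the left cells 2 were higher in tag 7 and 1 in tag 6, with a median of -0.05 and sums of 574.2 and 914.0 CPM. Nrarp, a Notch target that dampens the pathway, was higher in tag 6, at 34.4 and 15.1 CPM.

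The genes of the T-cell surface were mostly higher in tag 7. Of 22 counted of 35 listed, 18 were at least 2-fold higher in tag 7 and 0 in tag 6 with all cells. In the left cells 15 of 23 were higher in tag 7 and 1, Cd2, in tag 6, with a median log2 ratio of -1.29. Cd3g (ENSMUSG00000002033), the T-cell receptor's CD3 gamma chain, was at 27.2 CPM in tag 6 and 632.8 CPM in tag 7 over all cells, and at 37.7 and 651.4 CPM in the left cells, 17.3 times higher in tag 7 (15.9 to 18.8). Its neighbour Cd3d was at 26.9 and 156.4 CPM. Cd3g lies at 9:44969572-44980431 and Cd3d at 9:44981769-44987052, with Cd3e further along at 9:44998735-45009663. Thy1, a surface glycoprotein of T cells, was at 62.0 and 215.7 CPM, and Lat, the adaptor that couples the receptor to signalling, at 45.0 and 184.8 CPM. Il2ra was at 146.8 and 349.2 CPM. Cd2, an adhesion receptor of lymphocytes, was low in both and higher in tag 6, at 15.3 and 4.80 CPM. In bulk sums such as these, fewer cells of a type and less RNA per cell cannot be told apart.

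Genes shared by innate lymphoid cells split in both directions. In the left cells 7 of 19 counted (Id2, Id3, Klrd1, Klrk1, Tyrobp, Gzmb and Ccl5) were at least 2-fold higher in tag 6 and 4 (Gzma, Il17rb, Ifngr1 and Ctsw) in tag 7, with a median log2 ratio of -0.17. Gzma, a cytotoxic granule protease, was at 468.4 CPM in tag 6 and 2330.5 CPM in tag 7. Gzmb, the companion protease, was at 131.6 and 53.8 CPM. Id2, the inhibitor of E proteins that innate lymphoid cells depend on, was at 157.7 and 51.6 CPM. Tyrobp, an adaptor of natural killer and myeloid receptors, was at 776.7 and 228.0 CPM, and macrophage and dendritic cells express it too. Of the 6 E protein and Id genes, 3 were at least 2-fold higher in tag 6 and 0 in tag 7 in the left cells.

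**Figure D3:**
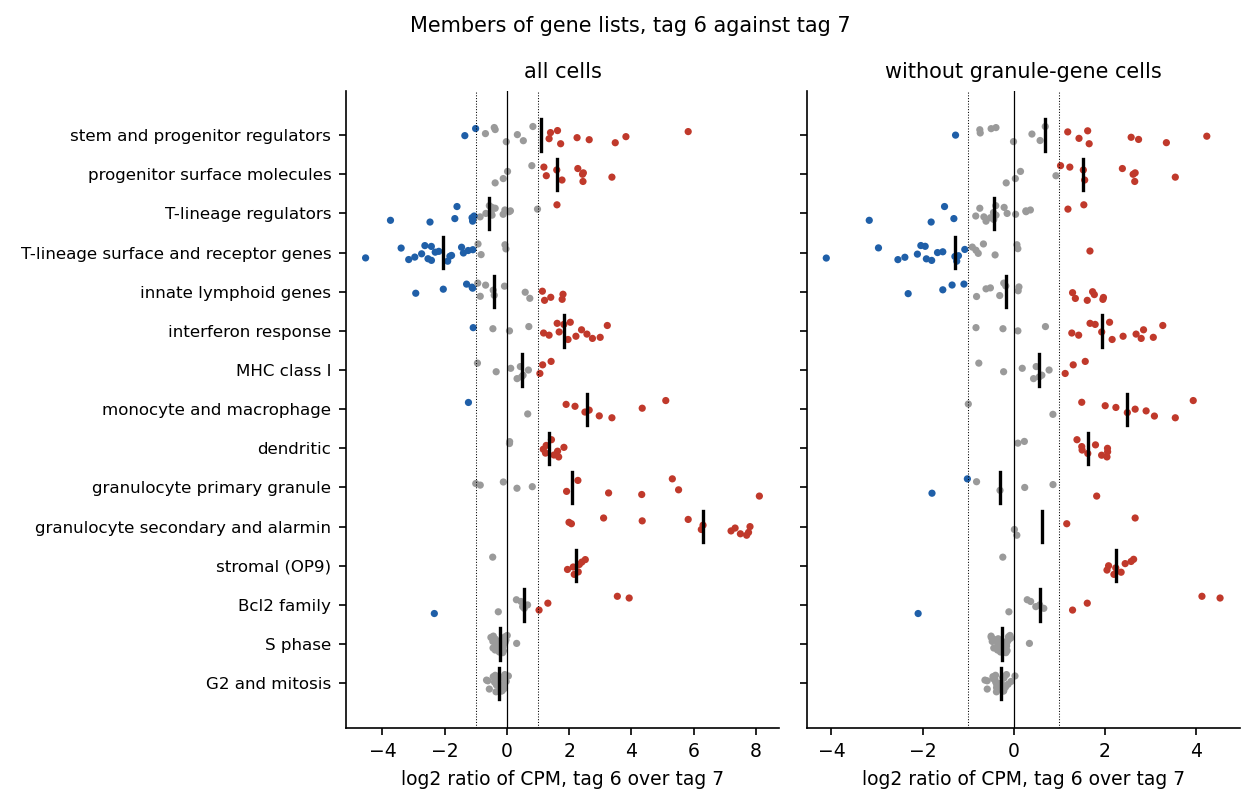
Log2 ratio of tag 6 to tag 7 for each counted member of the gene lists (dots) with the list's median (bar), for all cells and without the granule-gene cells. Members of the T-cell surface list lie mostly under 0 and those of the interferon and progenitor lists mostly above; the granule lists shift most between the panels.

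Interferon-response genes were higher in tag 6, with or without the granule-gene cells. In the left cells 13 of 17 counted were at least 2-fold higher in tag 6 and 0 in tag 7, with a median log2 ratio of 1.93. The summed level of the list was nonetheless close, 6846 CPM in tag 6 and 6734 CPM in tag 7. Among its members, Ifitm2 was at 1179.7 CPM in tag 6 and 2493 CPM in tag 7 over all cells. Gbp2, ENSMUSG00000028270 at 3:142620663-142638008, was at 205.4 and 21.3 CPM in the left cells. The antiviral modifier Isg15 was at 190.5 and 42.7 CPM, and the interferon-inducible GTPase Igtp at 174.5 and 54.7 CPM. Cxcl10, an interferon-induced chemokine, was at 54.5 and 1.32 CPM, a ratio of 41.3 (28.7 to 61.6). The receptor chains differed in opposite directions: Ifngr1 was at 65.1 CPM in tag 6 and 166.1 CPM in tag 7, and Ifngr2 at 26.0 and 9.37 CPM. Of 11 MHC class I genes, which interferons are known to induce, 3 (Tap1, Nlrc5 and H2-T23) were at least 2-fold higher in tag 6 with all cells.

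The promoters of 3 of these genes are shown because they carry the sequence that interferon-activated factors are known to bind. Each is the 250 bases before the RefSeq transcription start on GRCm38.p6, written along the gene's strand, with the motif GAAA, any 2 bases, GAAA in capitals, or TTTC, any 2 bases, TTTC where it lies on the other strand. The regions are chr3:142620413-142620662 on the plus strand for Gbp2, chr4:156200819-156201068 on the minus strand for Isg15 and chr11:58199306-58199555 on the plus strand for Igtp.
Gbp2: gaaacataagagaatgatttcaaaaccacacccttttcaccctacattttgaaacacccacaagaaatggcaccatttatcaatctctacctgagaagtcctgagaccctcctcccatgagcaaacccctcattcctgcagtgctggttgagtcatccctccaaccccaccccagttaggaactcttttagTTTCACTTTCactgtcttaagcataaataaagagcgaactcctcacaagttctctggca
Isg15: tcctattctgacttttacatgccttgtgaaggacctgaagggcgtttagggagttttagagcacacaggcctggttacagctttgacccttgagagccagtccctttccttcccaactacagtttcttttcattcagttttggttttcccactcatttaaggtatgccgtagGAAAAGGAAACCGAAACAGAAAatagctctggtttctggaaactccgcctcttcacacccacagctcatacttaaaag
Igtp: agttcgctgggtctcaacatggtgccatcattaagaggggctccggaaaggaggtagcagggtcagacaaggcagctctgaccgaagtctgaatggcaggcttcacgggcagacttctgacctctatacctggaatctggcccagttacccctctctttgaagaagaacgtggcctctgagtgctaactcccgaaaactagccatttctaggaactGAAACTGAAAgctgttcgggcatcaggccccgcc
In Isg15 the matches start 78, 72 and 66 bases before the start and overlap, in Gbp2 the match is 59 bases before it and in Igtp 34. Searched on both strands with overlaps allowed, the motif was present in 12 of the 18 interferon-list genes with a promoter in the table (66.7%), in 0 of 18 T-cell surface genes and in 936 of 27025 promoters of all genes (3.46%). Among the 13 interferon genes at least 2-fold higher in tag 6 in the left cells, 8 of the 11 with a promoter held it (72.7%). The Runx core motif TGTGGT was in 3 of 18 T-cell surface promoters (16.7%), 3 of 18 interferon promoters and 4303 of 27025 promoters (15.9%). A match is a feature of the sequence alone and no binding was measured.

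Lists of other blood lineages followed the cell groups, but they hold the genes that define those groups and are not separate evidence. With all cells the 13 counted secondary-granule and alarmin genes were each at least 2-fold higher in tag 6 and the median log2 ratio was 6.30; in the left cells 4 were counted, of which 2 were. Primary-granule genes went from 7 of 12 at least 2-fold higher in tag 6 to 1 of 7 (Prtn3, a gene of the removal rule), with 2 (Mpo and Cst7) in tag 7. Mpo, myeloperoxidase, was at 224.2 CPM in tag 6 and 23.2 CPM in tag 7 over all cells but at 6.21 and 21.5 CPM in the left cells. That opposite order came after a removal that took 30.9% of tag 6 cells and 2.16% of tag 7 cells, so it is no separate finding. Monocyte genes stayed apart in the left cells, with 9 of 11 counted at least 2-fold higher in tag 6 and summed levels of 720.9 and 166.4 CPM. Csf1r was at 39.5 and 3.39 CPM. Dendritic-cell genes were 9 of 11 higher, with summed levels of 4606 and 1593 CPM and 1 listed gene at 0 in tag 6; Cd74, the MHC class II chaperone, was at 1390.3 and 336.9 CPM. Stromal genes were 8 of 9 higher, with sums of 895.2 and 200.1 CPM, and Col1a2, a collagen chain, was at 228.5 and 44.7 CPM. B-lineage genes were 5 of 8 at least 2-fold higher in tag 7, with sums of 188.3 and 302.0 CPM. Mast-cell and basophil sums were 217.3 and 256.3 CPM, with Cpa3, a mast-cell protease gene, at 55.0 and 228.9 CPM and the basophil protease gene Mcpt8 at 119.0 and 23.7 CPM.

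Cell-cycle and glycolysis genes differed little in size, but most members leaned one way. The 27 S-phase and 26 mitotic genes held 0 members 2-fold apart either way, with median log2 ratios of -0.25 and -0.28 in the left cells beside 0.01 over all genes. Only 1 S-phase and 1 mitotic gene were higher in tag 6 by any amount. Summed levels were 2355 and 2850 CPM for S phase and 2778 and 3397 CPM for mitosis. Glycolysis genes had a median of 0.29 and 0 of 13 members 2-fold apart in the left cells, with 12 higher in tag 6 by any amount. In the Bcl2 family, 4 of 11 genes counted in the left cells were at least 2-fold higher in tag 6 and 1, Bcl2 itself, in tag 7. Bcl2, the survival gene, was at 54.7 CPM in tag 6 and 233.7 CPM in tag 7, 4.28 times higher in tag 7 (3.98 to 4.60). The mice carry a Bcl2 transgene, and its transcripts may be part of these counts. Of 17 counted cytokine receptor genes, 4 (Il6st, Ifngr2, Tnfrsf1a and Csf2rb) were at least 2-fold higher in tag 6 and 3 (Il7r, Il2ra and Ifngr1) in tag 7 with all cells. Il7r, the receptor for the IL-7 in the medium, was at 16.6 CPM in tag 6 and 45.5 CPM in tag 7 over all cells, but at 24.8 and 46.6 CPM in the left cells, under 2-fold apart. Chemokine and homing genes, again with all cells, were 5 of 15 at least 2-fold higher in tag 6 and 1, Cxcr5, in tag 7. Cyclin D1 (Ccnd1) was the 1 of 9 counted D cyclins and Cdk inhibitors 2-fold apart over all cells, at 51.9 and 19.3 CPM, and 0 of 12 stress and immediate early genes and 1 (Itga2b, toward tag 7) of 2 erythroid and megakaryocyte genes were. The Gimap genes, lymphocyte GTPases, had 3 of 4 counted members at least 2-fold higher in tag 7 with all cells and a median log2 ratio of -1.94.

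Set among the 8 cultures of the pool, which are not replicates of one another, tag 6 and tag 7 lay at opposite ends for some of these genes. The pair and the genes were chosen by the difference between these tags, so places near the ends are no separate finding. Lmo2 over all cells was highest in tag 6 at 123.6 CPM and lowest in tag 7 at 11.0 CPM, with the others from 30.4 to 82.8 CPM. Mef2c was highest in tag 6 at 201.5 and lowest in tag 7 at 32.2 CPM, with 52.9 to 153.8 CPM between. Tcf7 was lowest in tag 6, and tag 4 with 206.2 CPM and tag 2 with 178.7 CPM stood above tag 7. Il2ra was highest in tag 7 at 341.4 CPM, while tag 6 at 91.5 CPM stood above only tag 1 at 63.3 and tag 2 at 64.3 CPM. Cd3g was at 20.9, 125.3, 64.9, 742.5, 79.2, 27.2, 632.8 and 112.2 CPM in tags 1 to 8, so tags 4 and 7 were far above the rest and tags 1 and 6 below. Gbp2 was at 6.33, 10.6, 113.5, 61.3, 139.8, 197.2, 21.0 and 31.8 CPM in the same order. Gbp2 was thus high in tags 3 to 6 and low in tags 1, 2, 7 and 8, and tag 4 had both high Cd3g and raised Gbp2. Isg15 split the tags the same way, at 102.3 to 164.1 CPM in tags 3 to 6 and 34.3 to 43.1 CPM in the others. Ly6a was at 448.2, 201.5, 375.4 and 534.8 CPM in tags 3 to 6 and from 38.9 to 190.6 CPM in the other tags. Cd81 had another pattern, at 171.1 CPM in tag 6, 192.6 CPM in tag 8 and from 32.1 to 49.7 CPM in the rest.

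**Figure D4:**
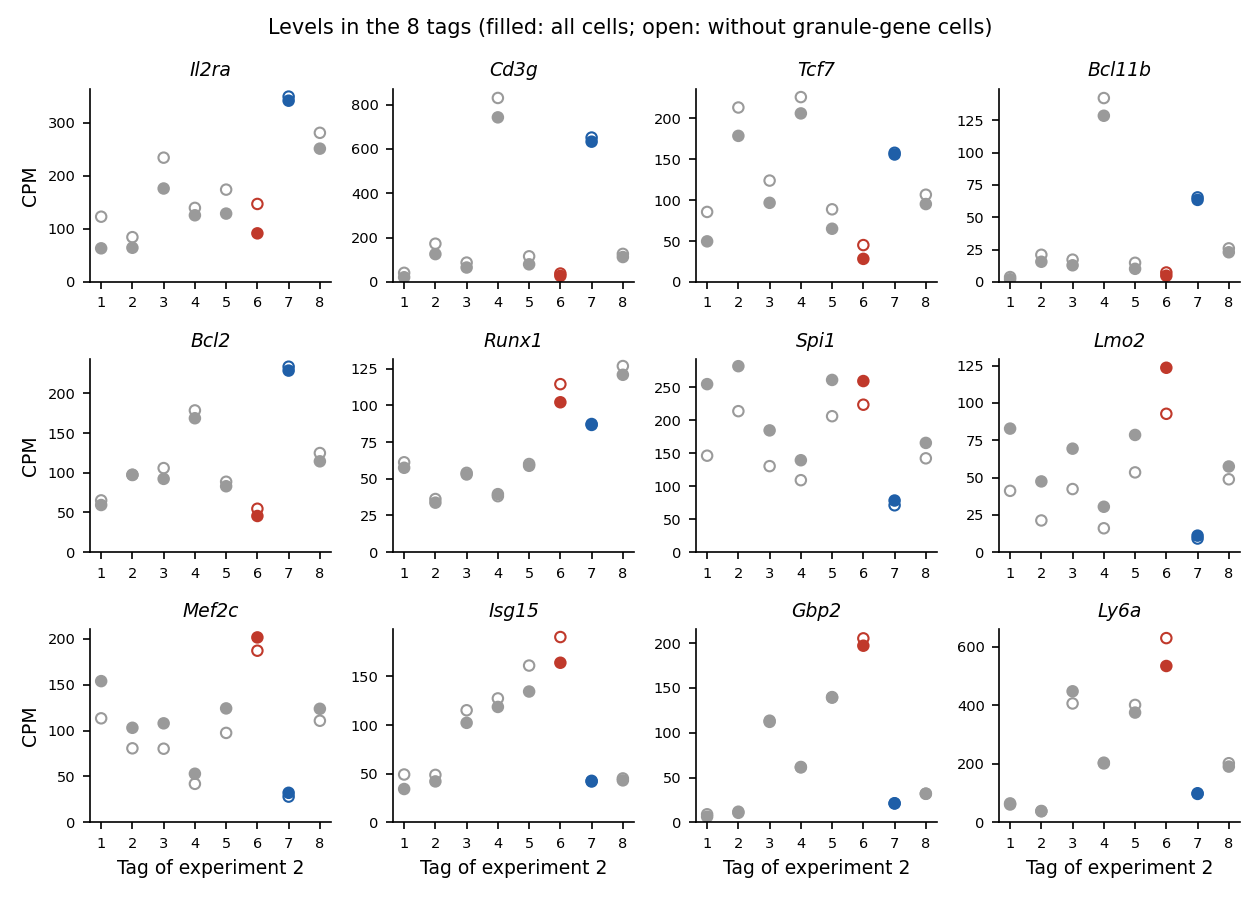
Level in CPM of 12 genes in each of the 8 tags of the second experiment, for all cells (filled) and without granule-gene cells (open), with tags 6 and 7 coloured. Cd3g is high in tags 4 and 7 (742.5 and 632.8 CPM), Isg15 and Gbp2 in tags 3 to 6, and Lmo2 is highest in tag 6 and lowest in tag 7.

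The comparison was repeated in narrower sets of cells, which were chosen by marker genes and were not shown to hold a single kind of cell. Without the granule, stromal, monocyte, MHC class II, B-lineage and mast groups, 371 tag 6 and 893 tag 7 cells were left, and 156 (2.28%) and 130 (1.9%) of 6828 genes were at least 2-fold higher in tag 6 and in tag 7. Progenitor regulators were then 7 of 17 higher in tag 6 and 0 in tag 7, T-cell surface genes 1 of 24 higher in tag 6 and 10 in tag 7, and interferon genes 10 of 14 higher in tag 6 and 0 in tag 7. Col1a2, a gene that defined the stromal group left out, was at 2.85 and 2.98 CPM in these cells. Of 8 dendritic genes counted there, 5 were at least 2-fold higher in tag 6 and 0 in tag 7, with sums of 930.5 and 585.2 CPM. Of 5 monocyte and macrophage genes, 3 were higher in tag 6 and 0 in tag 7, with sums of 245.6 and 96.3 CPM. In the strictest set, cells with at least 3 UMIs of Il2ra and in none of the other groups, tag 6 held 143 cells with 3818744 UMIs and tag 7 held 700 with 16975886. In that set 137 (2.01%) and 95 (1.39%) of 6822 genes were at least 2-fold higher in tag 6 and in tag 7, of which 69 and 53 were also so with all cells (18.8% of 368 and 25.7% of 206). Summed marker levels there were 172.8 and 78.9 CPM for monocyte genes, 575.3 and 563.2 CPM for dendritic genes and 53.2 and 43.7 CPM for stromal genes, and Csf1r was at 0.786 and 0.530 CPM (3 and 9 UMIs). Of 4 monocyte and macrophage genes counted there, 3 (Ccr2, Ctss and Adgre1) were at least 2-fold higher in tag 6 and 0 in tag 7, with a median log2 ratio of 1.84. The macrophage marker Adgre1 had 80 UMIs in tag 6 and 1 in tag 7. The part of these genes' cells in the differences within this set was not tested. Il2ra chose these cells, so its own level of 570.3 CPM in tag 6 and 440.8 CPM in tag 7 is no finding.

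Within the Il2ra cells, several T-lineage genes were near each other. Tcf7 was at 154.0 CPM in tag 6 and 171.2 CPM in tag 7, a ratio toward tag 7 of 1.11 (1.02 to 1.22). Thy1 was at 211.6 and 253.3 CPM, and Gata3 was now higher in tag 6, at 73.1 and 57.3 CPM. Other T-lineage genes remained apart: Cd3g was at 79.9 and 755.5 CPM, 9.46 times higher in tag 7 (8.44 to 10.6), Cd3d at 43.5 and 172.5 CPM and Bcl11b at 23.3 and 74.1 CPM. T-lineage regulators split evenly: of 20 counted, 2 (Bcl11b and Patz1) were at least 2-fold higher in tag 7 and 2 (Lef1 and Nrarp) in tag 6. Their median log2 ratio was 0.007 beside 0.05 over all genes. With all cells, Lef1 was at least 2-fold higher in tag 7, the opposite order. Of 26 counted T-cell surface genes, 4 (Cd3d, Cd3e, Cd3g and Ly6d) were at least 2-fold higher in tag 7 and 2 (Cd2 and Cd28) in tag 6, with a median log2 ratio of -0.16 beside 0.05 over all genes. Bcl2 was at 133.8 and 263.3 CPM, 1.97 times higher in tag 7. Lmo2, 10.2 times higher in tag 6 without the granule-gene cells, was at 4.45 and 3.18 CPM among the Il2ra cells, where the interval of the ratio (0.761 to 2.45) includes 1. Spi1 was at 103.7 and 41.6 CPM.

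Interferon genes were higher in tag 6 among the Il2ra cells too. Of 14 interferon genes counted, 8 (among them Isg15, Irf7, Oasl2, Ifi27l2a, Gbp2, Igtp and Irgm1) were at least 2-fold higher in tag 6 and 0 in tag 7, with a median log2 ratio of 1.43. Isg15 was at 132.5 CPM in tag 6 and 32.6 CPM in tag 7, a ratio of 4.06 (3.59 to 4.59). Gbp2 was at 100.6 and 16.2 CPM (6.21, 5.30 to 7.27), and Cxcl10 at 44.0 and 1.35 CPM. The innate lymphoid list, divided in both directions over all cells, leaned one way here, with 11 of 22 counted at least 2-fold higher in tag 6, 2 (Nkg7 and Ifngr1) in tag 7 and a median log2 ratio of 0.98. Gzmb was at 401.2 and 48.7 CPM, 8.24 times higher in tag 6 (7.57 to 8.98). Klrd1, a chain of natural killer receptors, was at 61.8 and 1.77 CPM, a ratio of 35.0 (23.9 to 53.0), and Id2 at 117.8 and 24.7 CPM. Gzma, by contrast, was at 1837 and 2708 CPM. Ly6a was at 365.8 and 88.8 CPM and Cd81 at 152.4 and 25.7 CPM. Runx1 was at 164.4 and 91.1 CPM and Runx3 at 180.7 and 124.9 CPM, ratios of 1.80 and 1.45.

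**Figure D5:**
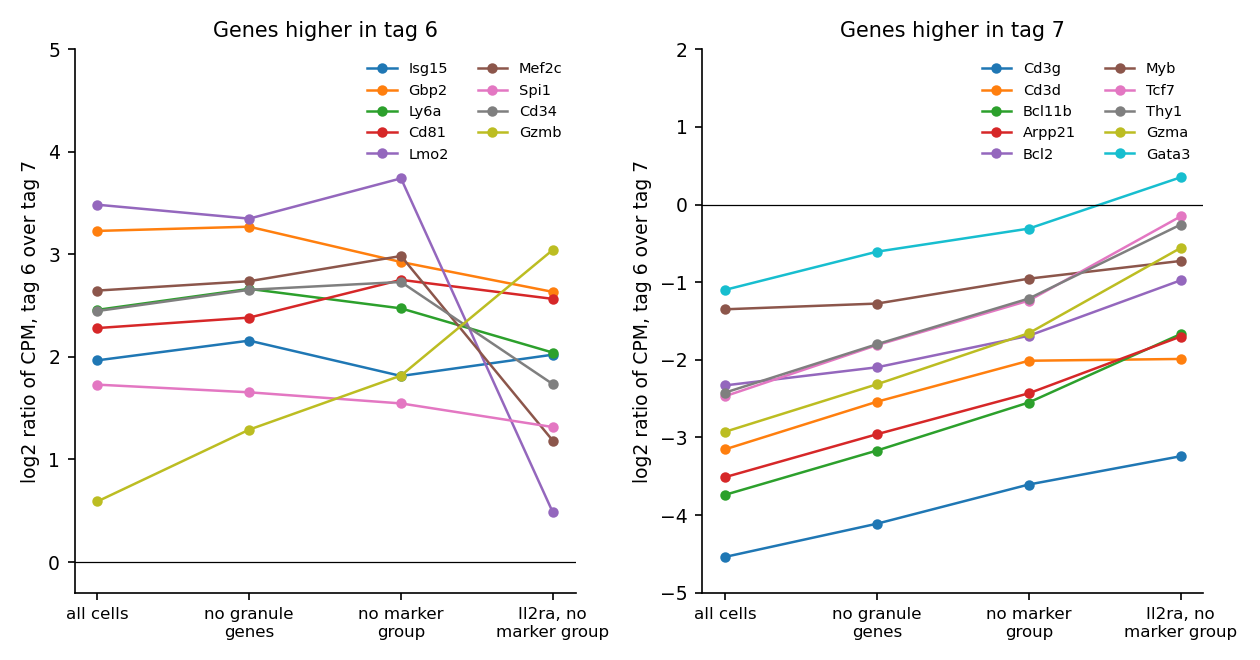
Log2 ratio of tag 6 to tag 7 for genes higher in tag 6 (left) and in tag 7 (right) in 4 nested sets of cells, from all cells to cells with Il2ra and no other marker group. Isg15, Gbp2, Ly6a and Cd81 stay above 0 throughout and Gzmb climbs, Lmo2 comes close to 0, and on the right Tcf7, Thy1 and Gata3 approach or cross 0 while Cd3g stays far below.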

How the data were processed

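Single-cell RNA libraries were made with 10x Chromium v3 from pooled, hashtagged cells. The files hold whole-number UMI counts per gene and barcode and counts per hashtag, as deposited by the authors. The submitters' processing notes name Cell Ranger 3.0.0 and the mm10 (GRCm38) build; how barcodes were called as cells, and whether tag counts are reads or molecules, was not given in the sources used here. The members, thresholds and gene lists were chosen with earlier results of these data known.

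Tags were called from the count and ratio rule given above, UMIs were summed per tag, and CPM (counts per 1000000) were taken over all 31053 gene rows, of which 30934 IDs matched the gene name table. The 71 rows that share a symbol with another were kept apart by ID. With 1 culture a side there is no test: intervals are exact Poisson for levels, exact conditional for ratios and Clopper-Pearson for shares, at 95%, all for counting error only. Genes averaging 10 CPM or more were counted, and 2-fold was the size rule. Ratios where a side had fewer than 3 UMIs used that floor. Named were members of 27 lists (469 genes) that were at least 2-fold apart in either comparison, 9 leading regulators, the 12 largest ratios per direction among genes averaging 20 CPM or more, and the members a list's account needed. Doublets of cells with the same tag were not removed, since Scrublet's automatic threshold called 0 cells; its scores served only as an alternative. Promoters are from RefSeq, GRCm38.p6. Alternatives covered tag calling, cell filters, scaling (edgeR 4.0.16 and DESeq2 1.42.0 factors), level filters, thinning and the granule-gene rule. The calculation was checked on simulated data. R 4.3.3, Seurat 5.3.0, Python 3.11.15, numpy 2.4.6, scipy 1.17.1, pandas 2.3.3, scanpy 1.11.5 and matplotlib 3.10.9 were used. The values of 1 listed gene are not reported here.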

Additional observations from a re-analysis of the deposited data

How the results depend on the processing

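No paired analysis was possible because each tag is 1 culture and no number links cultures across tags; leaving out a replicate was not possible for the same reason. Depth limits genes of a few CPM, and no alternative measures the spread between cultures. Over 173 named genes, the other settings of calling, filtering and scaling gave 1903 ratios with all cells and 2422 without the granule-gene cells, of which 417 and 469 moved beyond the counting interval and 0 turned direction. Counts of genes at least 2-fold apart were within 1.5 times except with the level filter: at a mean of 50 CPM, 92 toward tag 6 and 61 toward tag 7 (85 and 49 without the granule-gene cells), and with only 20 UMIs required, 1936 and 669 (1792 and 553). Leaving out the other marker groups gave 156 toward tag 6, and the Il2ra cells alone 137 and 95; these and leaving out stromal-gene cells were chosen after seeing the data. In the Il2ra cells, which Il2ra itself selects, its ratio of tag 6 to tag 7 turned to 1.29. Over these 3 settings 301 of 519 ratios moved without turning, 26 turned and 192 did neither. The granule-gene share of tag 6 was 26.6% with a stricter tag call (5 times, 100 counts), 10.9% after thinning to 5000 UMIs, 46.7% with 2 UMIs, 22.4% with 10 and 38.7% with a wider gene set; that of tag 7 was 0.4% after thinning, 10.1% with 2 UMIs, 1.28% with 10 and 17.3% with the wider set.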
